A study of Mus musculus with 72 samples.

Results

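The arrays described here compared a later with an earlier time of retinoic acid (RA) in mouse acute promyelocytic leukaemia (APL) that lacked Pml. They were the 8 arrays, of 72 in the series, whose labels give the viral transduction model, the fusion protein PML/RARA, the background pml-/-, treatment with retinoic acid and batch 3: 4 arrays at 12 h and 4 at 6 h. Each array was an Affymetrix Mouse Gene 1.0 ST array of total RNA from bone marrow. Set beside them were 4 untreated Pml null arrays of batch 3 (2 at 12 h and 2 at 6 h) and 8 RA arrays of batch 3 from leukaemias labelled wild type for Pml (4 at 12 h and 4 at 6 h). The wild type level without RA was read from untreated wild type arrays of batch 3, 2 at each time. In batch 4, 4 RA and 2 untreated Pml null arrays at 6 h gave the effect of RA in arrays whose levels are in neither group of the 12 h against 6 h comparison. All of these groups carried PML/RARA by viral transduction, so the controls differed from the treated groups in treatment, and the wild type groups in the background. Age, sex, strain, the dose of RA, the retroviral construct and the number of animals are not in the labels, and whether the arrays of 1 group stem from different mice is not stated either. The p-values therefore measure the spread between arrays within groups, which may be technical. That spread was pooled over all 36 viral transduction arrays. Among them, 2 untreated and 4 RA wild type arrays of batch 4 at 6 h served for the spread only.

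APL is a leukaemia of promyelocytes, the granulocyte precursors in which primary granules form. The fusion PML/RARA joins PML to a receptor for retinoic acid, and such fusions bind the receptor's DNA sites and hold their genes silent. RA at high dose releases that block and leads to degradation of PML/RARA, and the cells then mature toward neutrophils: they make secondary granule proteins, the phagocyte oxidase and receptors of mature granulocytes, and lose progenitor genes. PML, the other fusion partner, organises nuclear bodies, and the Pml null background asks which parts of the response proceed without the normal protein. In bulk bone marrow, fewer cells of a type and less RNA per cell cannot be told apart.

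The arrays did not fall cleanly by time. Across 19938 genes, RA 6 h replicates 1 to 3 correlated with each other at 0.993 to 0.996, but RA 6 h replicate 4 correlated with them at 0.985 to 0.990 and with the 12 h arrays at 0.991 to 0.995. Because replicate 4 at 6 h stood apart, results are given with and without it. That choice was made after its values were seen. Leaving out the 6 h array most like the 12 h arrays favours more calls, so results without it are no separate support for a gene. The 12 h arrays formed pairs, replicates 1 and 3 at 0.997 and replicates 2 and 4 at 0.995, against 0.989 to 0.992 across the pairs. In the wild type leukaemias, RA 6 h replicates 1 and 2 correlated with 12 h replicates 3 and 4 at 0.990 to 0.995, and RA 6 h replicates 3 and 4 with 12 h replicates 1 and 2 at 0.994, above the 0.984 to 0.988 across these pairs within a time. Each title carries a code whose meaning is not given. The code of RA 6 h replicate 4 follows that of untreated 6 h replicate 2 and not those of the other RA 6 h arrays, while the pairs of 12 h arrays do not follow the order of their codes. Whether RA 6 h replicate 4 and the wild type arrays are labelled with the right time, or come from other leukaemias than the rest of their groups, was not tested. The promyelocyte enzyme Mpo (myeloperoxidase) lay between 13.30 and 13.50 on the log2 scale on all 8 Pml null RA arrays, where the highest value of any probe set was 14.10, so this defining marker of promyelocytes gave a high signal in each sample. The probe set of Pml did not separate the backgrounds: it lay between 9.73 and 10.22 on the 8 Pml null RA arrays and between 9.28 and 10.23 on the 8 wild type RA arrays. Whether that probe set lies inside the deleted stretch is not given in the sources used here, so it does not check the labels.

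From 6 h to 12 h of RA, several neutrophil genes rose in Pml null leukaemia and a small group fell that includes genes RA had raised by 6 h. Ngp, the neutrophilic granule protein, rose 4.00-fold, the alarmins S100a8 and S100a9 3.13-fold and 3.40-fold, and the chemokine receptor Cxcr2, which brings neutrophils out of the marrow, 3.57-fold. The largest fall was that of Ttyh2, a membrane protein of the tweety family, by 2.05 on the log2 scale. Of 19938 genes, 102 were called at an adjusted p below 0.05 (0.512%), 86 of them higher at 12 h (0.431%) and 16 lower (0.0802%), and the change reached 1.5-fold for 66, of which 55 were rises and 11 falls. The median change of all genes was -0.02, with 8979 of the 19938 above 0. Without RA 6 h replicate 4, 698 genes were called (3.5%), 561 up (2.81%) and 137 down (0.687%), and all 102 were among them with the same sign. Leaving out an array that lay near the 12 h arrays favours such an outcome. Leaving out another array lowered the count, to 48, 40 and 29 without RA 6 h replicates 1, 2 and 3 and to 54 and 57 without 12 h replicates 1 and 3. The spread was estimated over all 36 viral transduction arrays: with the 24 of batch 3 alone 52 genes were called, 50 of the 102 among them, and with the 8 arrays alone 14, of which 12 were among the 102. Counted without a model, the 4 arrays of 12 h lay above all 4 of 6 h for 627 genes (3.14%) and below them for 554 (2.78%), and 91 of the 102 called genes were of these 2 kinds. At the 698 genes, RA 6 h replicate 4, which took no part in choosing them, lay at a median of 0.90 of the way from the mean of the other 6 h arrays to the 12 h mean, and nearer to the 12 h mean at 562 (80.5%).

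**Figure D1:**
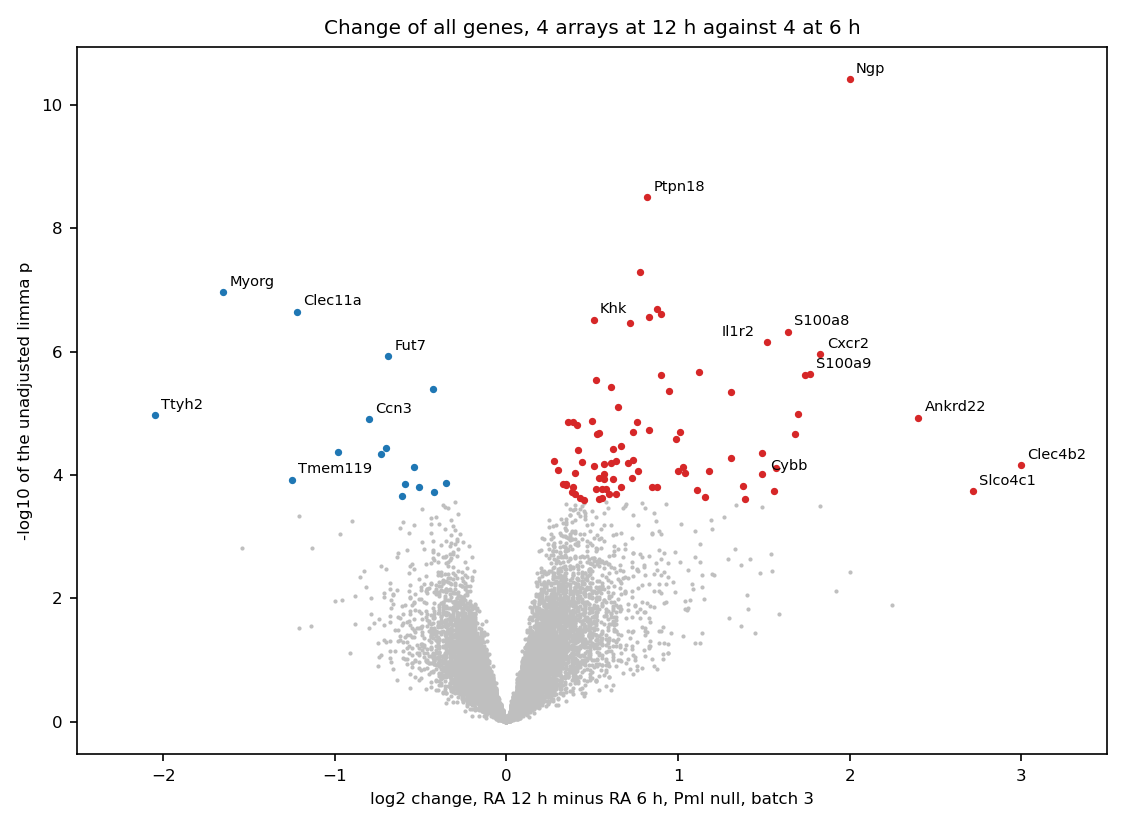
Each point is 1 of 19938 genes. The horizontal axis is the log2 change from RA 6 h to RA 12 h in Pml null leukaemia of batch 3 (4 arrays each), the vertical axis the -log10 of the unadjusted limma p; red and blue mark the 86 genes called higher and the 16 called lower. Ngp has the smallest p, and Clec4b2 and Ttyh2 the largest rise and fall among called genes.

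Ngp, a cathelicidin-like protein of secondary granules in mice, had the smallest p of all genes. Its log2 level was 12.36, 12.78, 12.73 and 12.27 in the 12 h arrays and 10.25, 10.48, 10.43 and 10.98 in the 6 h arrays. Every 12 h array was thus more than 1 log2 unit above every 6 h array, replicate 4 included. The change was 2.00 ± 0.19 (SE, limma adjusted p = 7.69e-07), and 2.15 without RA 6 h replicate 4. The 4 untreated arrays lay between 10.14 and 10.68, beside the 6 h RA arrays. The promoters of Ngp, S100a8, S100a9 and Cxcr2 are shown, as the 4 neutrophil genes that the comparison turns on, from RefSeq (GRCm38.p6), from 250 bases before to 50 bases after the annotated start, read along the gene. Capitals mark matches, on either strand, to TTNNGCAA, a core of sites for C/EBP factors, and to GAGGAA, a core of sites for PU.1, factors known to drive granulocyte genes. The coordinates are chr9:110419558-110419857 on the plus strand for Ngp, chr3:90668821-90669120 on the plus strand for S100a8, chr3:90695672-90695971 on the minus strand for S100a9 and chr1:74153744-74154043 on the plus strand for Cxcr2.
Ngp: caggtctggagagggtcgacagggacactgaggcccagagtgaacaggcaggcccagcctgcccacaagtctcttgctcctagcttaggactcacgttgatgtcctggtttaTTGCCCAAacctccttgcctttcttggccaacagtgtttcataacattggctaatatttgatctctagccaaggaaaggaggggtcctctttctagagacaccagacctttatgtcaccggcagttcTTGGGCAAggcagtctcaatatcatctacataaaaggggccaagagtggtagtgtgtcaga
S100a8: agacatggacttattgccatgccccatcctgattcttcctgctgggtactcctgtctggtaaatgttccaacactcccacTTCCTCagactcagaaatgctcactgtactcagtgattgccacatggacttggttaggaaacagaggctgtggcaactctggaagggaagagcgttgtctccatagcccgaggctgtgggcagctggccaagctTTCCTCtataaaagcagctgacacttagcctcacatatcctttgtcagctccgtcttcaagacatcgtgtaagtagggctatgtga
S100a9: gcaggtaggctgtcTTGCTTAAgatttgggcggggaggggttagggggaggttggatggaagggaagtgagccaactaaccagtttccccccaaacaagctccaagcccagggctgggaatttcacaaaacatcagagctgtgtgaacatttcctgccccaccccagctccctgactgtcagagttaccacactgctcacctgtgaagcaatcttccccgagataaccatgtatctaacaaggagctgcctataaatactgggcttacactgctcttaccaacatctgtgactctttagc
Cxcr2: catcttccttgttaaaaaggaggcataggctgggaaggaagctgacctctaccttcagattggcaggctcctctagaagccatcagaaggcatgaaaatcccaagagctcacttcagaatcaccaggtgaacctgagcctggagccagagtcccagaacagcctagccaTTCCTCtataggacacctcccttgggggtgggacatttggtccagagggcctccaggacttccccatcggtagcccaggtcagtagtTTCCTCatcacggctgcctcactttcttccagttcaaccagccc
The Ngp window held 2 matches to the C/EBP core, 138 to 131 and 11 to 4 bases before the start, and 0 to the PU.1 core. The S100a9 window held 1 match to the C/EBP core, and the windows of S100a8 and Cxcr2 each held 2 to the PU.1 core. The 2 cores do not overlap in these windows. Of 27025 promoters of the same length in the table, 1 per gene, 10.8% held TTNNGCAA and 28.3% held GAGGAA. Of the 69 called rises with a promoter in the table, 12 (17.4%) held TTNNGCAA and 19 (27.5%) held GAGGAA, and of the 11 called falls 2 (18.2%) and 1 (9.09%). A match is a run of letters and not a measured binding site.

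The alarmins S100a8 and S100a9, which pair to form calprotectin, the most abundant cytosolic protein of neutrophils, rose together. S100a8 measured 12.38, 11.52, 12.47 and 10.90 at 12 h against 10.46, 9.97, 10.38 and 9.88 at 6 h. The change was 1.64 ± 0.25 (limma adjusted p = 0.00086). S100a9 measured 11.94, 10.53, 12.04 and 10.04 against 9.51, 9.46, 9.60 and 8.92, a change of 1.77 ± 0.30 (limma adjusted p = 0.00271). For both genes the 12 h arrays 1 and 3 were high and 2 and 4 lower, the groups did not overlap, and RA 6 h replicate 4 was the lowest array. The untreated arrays ran from 9.58 to 11.13 for S100a8 and from 8.74 to 10.30 for S100a9, so that untreated 12 h replicate 1 lay above RA 12 h replicate 4 for both. Cxcr2 measured 10.01, 9.42, 9.43 and 9.60 against 7.45, 8.03, 6.82 and 8.82, a change of 1.83 ± 0.30 (limma adjusted p = 0.00168). Here RA 6 h replicate 4 was the highest of the 6 h arrays and the groups still did not overlap. Cybb, the catalytic subunit of the oxidase that makes superoxide, lay between 12.41 and 12.65 at 12 h, and at 10.95, 10.88, 10.45 and 11.91 at 6 h (1.49 ± 0.31, limma adjusted p = 0.0192).

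**Figure D2:**
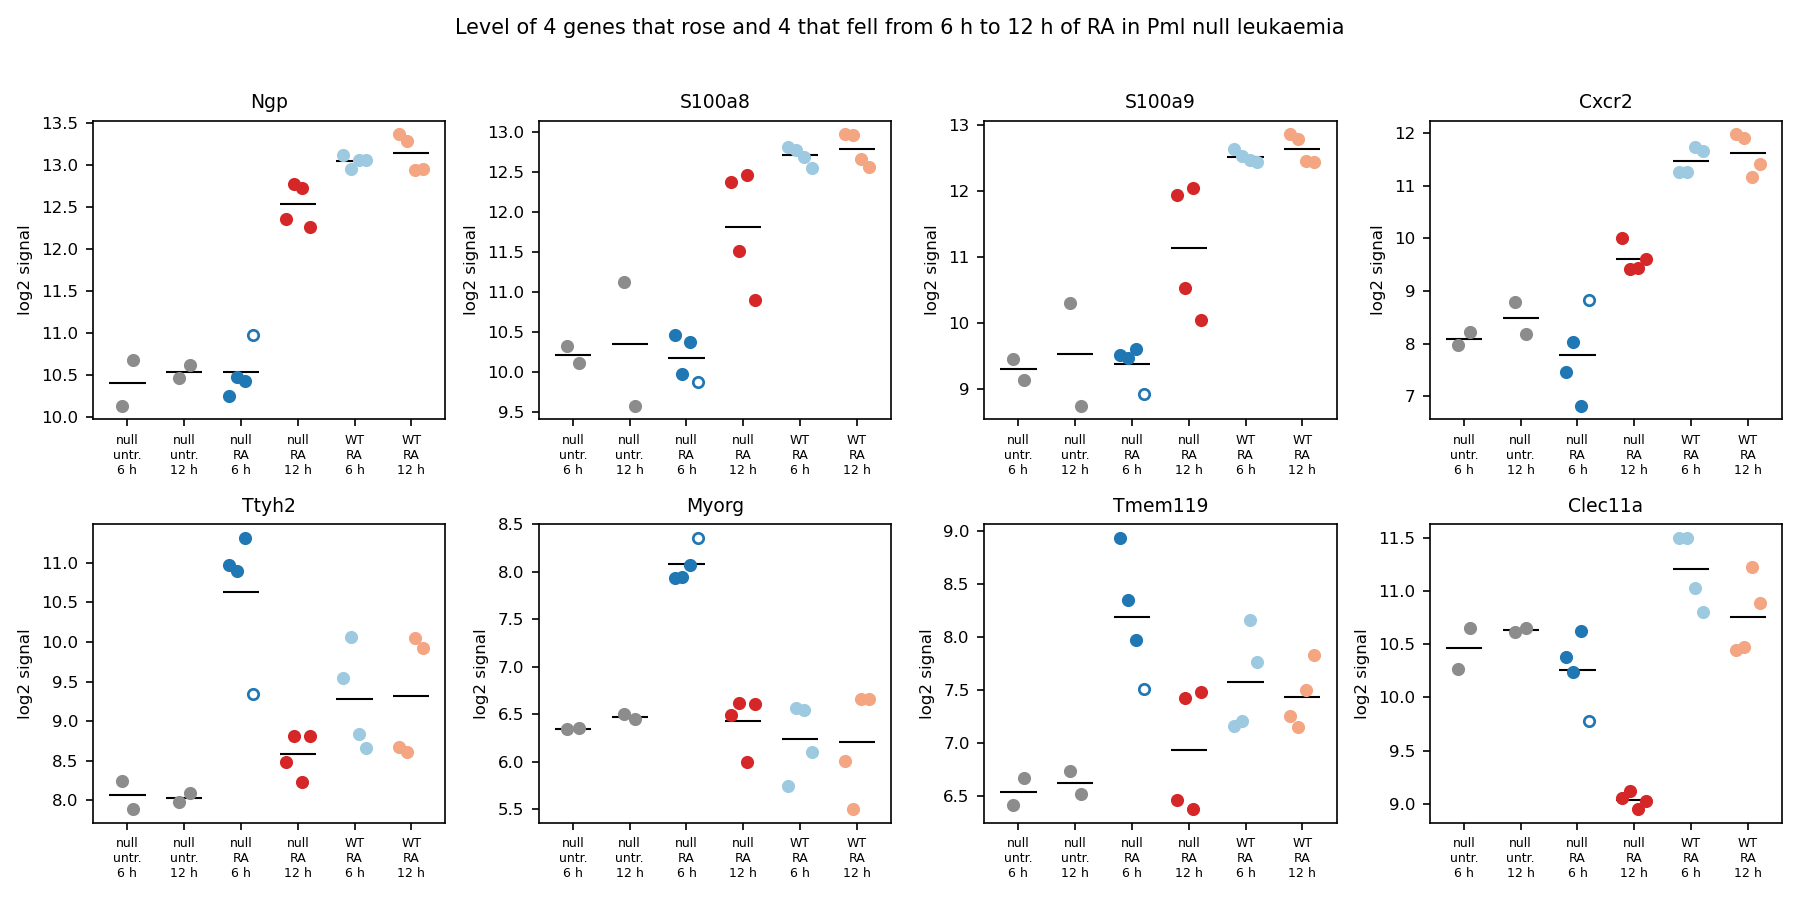
Log2 signal of 8 genes on each array of batch 3 (2 untreated arrays per time, 4 RA arrays per time and background; WT is Pml wild type). Points are arrays, bars are group means, and the open circle is RA 6 h replicate 4. In the Pml null leukaemia the upper 4 genes are higher at 12 h than at 6 h of RA and the lower 4 are lower, with no overlap of the 4 arrays in either case.

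Among 25 measured secondary granule and mature neutrophil genes of 28 listed, 7 rose and 0 fell (0.431% and 0.0802% of all genes). The groups did not overlap upward for 12 (3.14% of all genes), and the median change was 0.88 against -0.02 over all genes. Besides Ngp, S100a8, S100a9, Cxcr2 and Cybb the called members were Retnlg, a resistin-like secreted protein (1.68 ± 0.33, limma adjusted p = 0.0112), and Pglyrp1, a bactericidal peptidoglycan recognition protein of granules (0.88 ± 0.13, limma adjusted p = 0.000675). Pglyrp1 measured 11.73 to 12.17 at 12 h and 10.83 to 11.43 at 6 h. Without RA 6 h replicate 4, 11 of the 25 were called higher (2.81% of all genes were) and the median was 1.02. Itgam, the CD11b integrin chain, was among the 4 that joined (0.90 ± 0.24 with limma adjusted p = 0.0912, and 1.09 with adjusted p = 0.0161 without that array). Padi4, the enzyme that citrullinates histones in neutrophils, chosen for mention after its values were seen, also joined: it measured 8.90 to 9.66 at 12 h, 6.23 to 6.94 in RA 6 h replicates 1 to 3 and 8.99 in replicate 4 (2.00 ± 0.63 with limma adjusted p = 0.166, and 2.59 with adjusted p = 0.0222 without that array). Lcn2, the siderophore-binding lipocalin, was near the top of the scale at both times (13.43 to 13.57 and 12.91 to 13.30), with a change of 0.38 ± 0.14 (limma adjusted p = 0.243). The changes of the 18 that did not pass the test ran from -0.32 for Clec7a, a receptor for fungal glucans, to that of Padi4. Against the untreated 12 h arrays of batch 3, 11 of the 25 were called higher with RA at 12 h (4% of all genes were), and in batch 4 at 6 h 2 were called higher and 2 lower (2.21% and 1.52% of all genes), with a median of -0.05.

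Other secondary granule proteins of the list were not called: Ltf, lactoferrin, changed by 0.74 ± 0.52, Camp, the cathelicidin, by 0.60 ± 0.28 and Mmp8, the neutrophil collagenase, by -0.01 ± 0.26 (limma adjusted p = 0.389 or above). Of 13 measured primary granule and promyelocyte genes, 0 were called in either direction (0.512% of all genes were) and the median was 0.34. Prtn3, proteinase 3, measured 12.18 to 13.07 at 12 h and 11.44 to 11.99 at 6 h (0.86 ± 0.21, limma adjusted p = 0.063). Elane, neutrophil elastase, changed by 0.42 ± 0.12 (limma adjusted p = 0.105), and both passed the threshold without RA 6 h replicate 4 (limma adjusted p = 0.032 and 0.0319). Mpo, which lies near the top of the scale, differed by -0.12 ± 0.05 (limma adjusted p = 0.313), and Cst7, the protease inhibitor cystatin F, by -0.34 ± 0.11 (limma adjusted p = 0.178).

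**Figure D3:**
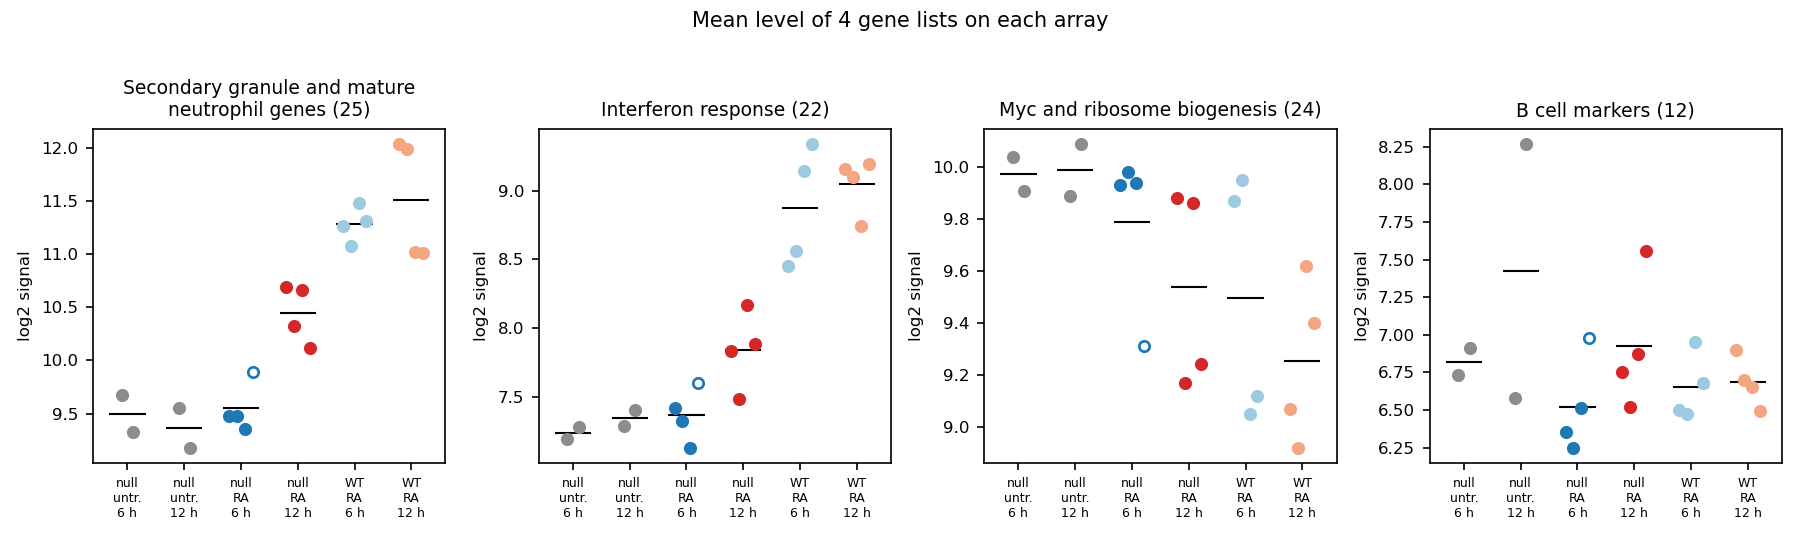
Mean log2 signal of the measured members of 4 gene lists on each array of batch 3, with points, bars and the open circle (RA 6 h replicate 4) as for the single genes. The neutrophil list is at 10.12 to 10.69 in the 12 h Pml null arrays and 9.35 to 9.89 in the 6 h arrays; the Myc list splits the 12 h arrays, with replicates 2 and 4 beside RA 6 h replicate 4.

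The largest called rises lay outside the classical granule genes. Clec4b2, a C-type lectin receptor, rose by 3.00 ± 0.64 (limma adjusted p = 0.0246) from 5.98, 6.86, 5.89 and 7.56 to 10.20, 8.47, 10.91 and 8.73. Slco4c1, an organic anion transporter, rose by 2.72 ± 0.63 (limma adjusted p = 0.0402) from 6.14, 6.99, 5.55 and 8.28 to 9.63, 8.90, 9.82 and 9.47. In both genes RA 6 h replicate 4 was the highest 6 h array and the groups did not overlap, but the untreated arrays of these genes spread widely, from 6.33 to 9.11 for Clec4b2 and from 6.31 to 8.69 for Slco4c1. Ankrd22, an ankyrin repeat protein, rose by 2.40 ± 0.45 (limma adjusted p = 0.00853), from 7.0 to 8.07 in the 6 h arrays to 9.22 to 10.41 in the 12 h arrays. Other large rises were those of Dennd2a, an exchange factor for Rab GTPases (1.74 ± 0.29), Mctp2, a membrane protein with C2 domains (1.57 ± 0.34), Klra2, a lectin-like receptor of the Ly49 family (1.56 ± 0.36), and Ifitm6, of the interferon-induced transmembrane family (1.49 ± 0.33). Their limma adjusted p-values lay between 0.00271 and 0.0402. For Dennd2a, RA 6 h replicate 4 lay among the other 6 h arrays: its 6 h arrays lay at 6.47, 6.46, 6.17 and 6.39 and its 12 h arrays at 7.24, 8.93, 8.32 and 7.94.

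Among enzymes, Hgd, homogentisate dioxygenase of tyrosine breakdown, measured 8.38, 9.38, 8.40 and 8.86 at 12 h. At 6 h it measured 6.42, 6.98, 6.28 and 8.55, so that replicate 4 lay inside the 12 h range. The change was 1.70 ± 0.32 (limma adjusted p = 0.00804), and 2.20 without that array (adjusted p = 7e-06). Fah, fumarylacetoacetate hydrolase, which acts later in the same pathway and was chosen for mention after its values were seen, measured 11.29 to 11.58 at 12 h and 10.29 to 10.63 at 6 h (0.99 ± 0.20, limma adjusted p = 0.0132). Tat, tyrosine aminotransferase, the first enzyme of the pathway, changed by -0.06 ± 0.11 (limma adjusted p = 0.857). Khk, ketohexokinase, the first enzyme of fructose breakdown, rose by 0.51 ± 0.08 (limma adjusted p = 0.000675), from 7.48 to 7.86 to 8.13 to 8.22. Ptpn18, a protein tyrosine phosphatase, rose by 0.82 ± 0.10 (limma adjusted p = 3.17e-05). It lay at 7.82 to 7.90 in the 12 h arrays, at 6.95 to 6.99 in RA 6 h replicates 1 to 3 and at 7.24 in replicate 4.

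The 5 measured subunits of the phagocyte NADPH oxidase all had positive changes, with a median of 0.83. Cybb alone was called (0.431% of all genes were called higher), and 4 of the 5 did not overlap upward (3.14% of all genes). Ncf4, the p40 subunit, lay at 11.25 to 11.40 at 12 h and 9.95 to 11.04 at 6 h (0.83 ± 0.28, limma adjusted p = 0.196), and Cyba, the membrane partner of Cybb, at 12.45 to 12.69 and 12.02 to 12.44 (0.36 ± 0.10, limma adjusted p = 0.119). Rac2, the GTPase of the complex, changed by 0.26 ± 0.09 (limma adjusted p = 0.23). Ncf1, the p47 organiser, measured 12.59, 12.45, 12.44 and 12.76 at 12 h and 11.93, 11.61, 10.36 and 12.79 at 6 h, so that RA 6 h replicate 4 was the highest of the 8 (0.89 ± 0.44, limma adjusted p = 0.41). At 6 h of RA in batch 4, Ncf1 was 2.81 and Ncf4 1.43 above untreated, both called. The RA effect there on Cybb was 0.37 (limma adjusted p = 0.758) and on Cyba 0.20 (limma adjusted p = 0.532). Whether the RA effect differed between subunits was not tested.

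Of 22 measured interferon response genes, 20 had positive changes, with a median of 0.52, and 1 was called (0.431% of all genes were called higher). Irf7, the transcription factor that amplifies type I interferon, was that gene and rose by 0.74 ± 0.16 (limma adjusted p = 0.0233). It measured 8.54, 8.68, 8.86 and 8.66 at 12 h and 7.83, 7.76, 7.79 and 8.39 at 6 h, with replicate 4 again nearest to the 12 h arrays. Without that array 6 of the 22 were called higher (2.81% of all genes were). Oas2, an antiviral oligoadenylate synthetase, went from 1.10 ± 0.29 (limma adjusted p = 0.0889) to 1.32 (adjusted p = 0.0153), and Xaf1, a pro-apoptotic interferon-induced protein, from 0.53 (adjusted p = 0.215) to 0.68 (adjusted p = 0.0397). Oas3, another synthetase, stayed outside the threshold (0.83 ± 0.25, limma adjusted p = 0.131, and 0.0512 without the array). The mean level of the list was 7.83, 7.48, 8.17 and 7.88 at 12 h and 7.42, 7.32, 7.13 and 7.60 at 6 h, and 7.19 to 7.40 in the untreated arrays. The groups overlapped through 12 h replicate 2 and 6 h replicate 4.

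Cytokine genes moved singly. Of 26 NF-kB and cytokine response genes, 1 was called (0.431% of all genes were called higher), with a median change of 0.07. It was Cd14, a coreceptor for lipopolysaccharide, which rose by 1.31 ± 0.27 (limma adjusted p = 0.0221), from 8.33 to 9.41 to 10.06 to 10.70. Il1rn, the interleukin 1 receptor antagonist, did not overlap (9.36 to 10.07 against 7.52 to 8.95) but missed the threshold (1.49 ± 0.36, limma adjusted p = 0.0557). Il1r2, the decoy receptor for interleukin 1, which glucocorticoids also raise in neutrophils, measured 8.62, 9.34, 8.79 and 8.96 at 12 h and 7.45, 8.0, 7.20 and 7.0 at 6 h. It rose by 1.52 ± 0.24 (limma adjusted p = 0.00118) and was the 1 called member of the 15 measured glucocorticoid response genes, whose median was -0.14. Sgk1, a kinase of that list, changed by 0.50 ± 0.13 (limma adjusted p = 0.0769). Jak2, the kinase of cytokine receptors, rose by 0.61 ± 0.11 (limma adjusted p = 0.00376) and was the 1 called gene of 18 in the list of Pim, Jak-Stat and feedback genes, whose median was 0.13.

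**Figure D4:**
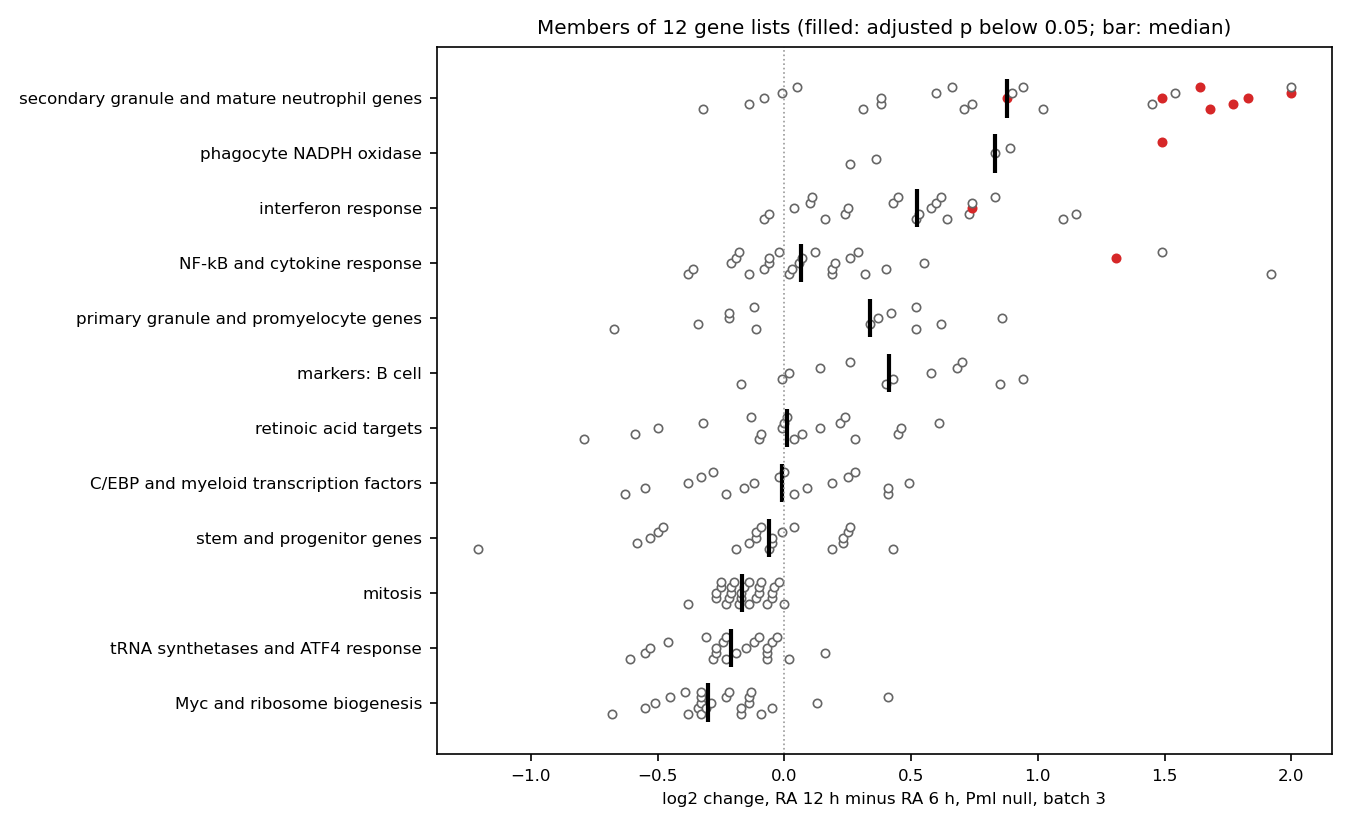
Log2 change from RA 6 h to RA 12 h in Pml null leukaemia for the measured members of 12 gene lists. Circles are genes, filled where the adjusted p is below 0.05, and vertical bars are medians. The neutrophil list has 7 filled members and a median of 0.88; the mitosis, tRNA synthetase and Myc lists have 0 and medians from -0.30 to -0.16.

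Among the 16 genes that fell, the 3 largest were in genes whose untreated level lay below all 4 RA 6 h arrays. Ttyh2 measured 10.97, 10.90, 11.32 and 9.35 at 6 h and 8.48, 8.81, 8.23 and 8.82 at 12 h, a change of -2.05 ± 0.38 (limma adjusted p = 0.00817), or -2.48 without RA 6 h replicate 4. The untreated arrays lay between 7.89 and 8.24, a range that meets the 12 h arrays at replicate 3. Myorg, a glycosidase of the endoplasmic reticulum, measured 7.93, 7.95, 8.07 and 8.36 at 6 h and 6.49, 6.62, 6.00 and 6.61 at 12 h (-1.65 ± 0.23, limma adjusted p = 0.000538), with untreated arrays at 6.34 to 6.5. Here RA 6 h replicate 4 was the highest array. Tmem119, a membrane protein best known as a marker of microglia, measured 8.94, 8.35, 7.97 and 7.51 at 6 h and 6.47, 7.43, 6.38 and 7.48 at 12 h (-1.25 ± 0.28, limma adjusted p = 0.0324), with untreated arrays at 6.42 to 6.74. The 12 h arrays 2 and 4 and RA 6 h replicate 4 were near each other, between 7.43 and 7.51.

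A further group fell below the untreated level. Clec11a, a secreted growth factor for haematopoietic progenitors, measured 10.38, 10.24, 10.62 and 9.78 at 6 h, 9.05, 9.12, 8.95 and 9.03 at 12 h, and 10.27 to 10.65 untreated. It fell by 1.22 on the log2 scale (-1.22 ± 0.18, limma adjusted p = 0.000675), and RA at 12 h was 1.59 below untreated (-1.59). Slc9a9, a sodium-proton exchanger of endosomes, measured 7.89 to 8.43 at 6 h and 6.78 to 7.65 at 12 h (-0.98 ± 0.20, limma adjusted p = 0.0185), with untreated arrays at 7.91 to 8.45. Ccn3, a matricellular protein that regulates haematopoietic stem cells, measured 10.95 to 11.94 at 6 h and 10.41 to 10.90 at 12 h (-0.80 ± 0.15, limma adjusted p = 0.00853), with untreated arrays at 11.56 to 11.95. The other called falls were smaller: Fut7, the fucosyltransferase of selectin ligands (-0.69 ± 0.11), Slc46a1, a folate transporter (-0.73 ± 0.15), and Rapgef3, the cyclic AMP sensor Epac1 (-0.70 ± 0.14). Nsmf (-0.61 ± 0.14), the ubiquitin ligase Rnf144a (-0.59 ± 0.13), Mtmr9 (-0.54 ± 0.12), the TGF-beta receptor kinase Tgfbr1 (-0.51 ± 0.12), Fndc1 (-0.43 ± 0.07) and Mfhas1 (-0.42 ± 0.10) changed less. Mrfap1, outside the 15 largest falls, was the remaining called gene, and its groups overlapped (10.48 to 10.78 against 10.74 to 11.17, -0.35 ± 0.08, limma adjusted p = 0.0362). For each of the 9 genes from Fut7 to Mfhas1 the 4 arrays of 12 h lay below the 4 of 6 h (2.78% of all genes), which being called on the same arrays favours. Their limma adjusted p-values lay between 0.00169 and 0.0453.

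The arrays of batch 4 gave the effect of RA at 6 h on the same genes in other samples, although they shared the estimate of the spread. In them 744 genes were called (3.73%), 440 up (2.21%) and 304 down (1.52%). Of the 16 genes that fell from 6 h to 12 h, 6 had been called higher with RA in batch 4 and 0 lower: Ttyh2 (2.94), Myorg (1.79), Tmem119 (1.59), Slc46a1 (0.65), Rapgef3 (0.65) and Mfhas1 (0.45). These 6 are a small share of the 440 genes that RA raised at 6 h in batch 4, which had a median change of -0.03 from 6 h to 12 h, with 4 called up and 6 down. Of the 86 genes that rose, 4 were called higher in batch 4 and 0 lower, and their median RA effect there was 0.09. Ngp was 0.23 above untreated in batch 4 at 6 h (limma adjusted p = 0.751), Cxcr2 -0.77 (limma adjusted p = 0.306), S100a9 -0.55 (limma adjusted p = 0.557) and S100a8 -0.41 (limma adjusted p = 0.628). The 304 genes that RA lowered at 6 h in batch 4 had a median change of 0.11 from 6 h to 12 h. Of them 234 (77%) were above 0, against 8979 of all 19938 genes. With all 8 arrays 0 of them were called. Without RA 6 h replicate 4, 15 were called up and 4 down (2.81% and 0.687% of all genes).

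**Figure D5:**
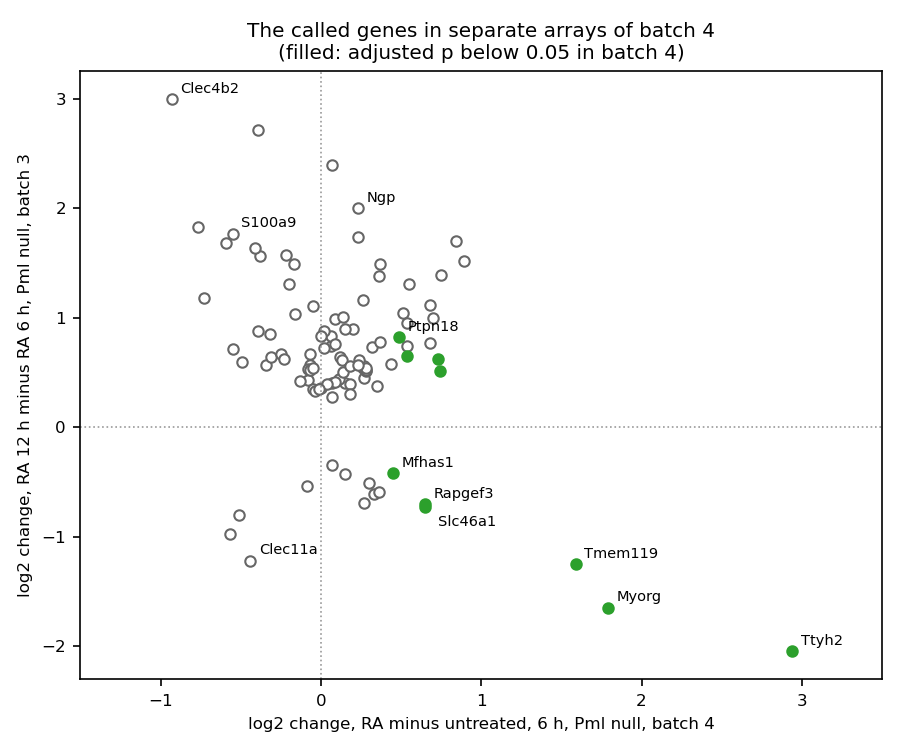
The 102 genes called between RA 6 h and RA 12 h in batch 3 (vertical axis, log2 change) against the RA effect at 6 h in the separate batch 4 arrays (horizontal axis, log2 change, 4 RA and 2 untreated arrays). Filled points are called in batch 4. Ttyh2, Myorg and Tmem119 lie at the lower right, raised by RA at 6 h and lower at 12 h than at 6 h; Ngp and S100a9 lie near or left of 0 and rise later.

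The listed retinoic acid targets were not called between the times. Lrat, which esterifies retinol and was not on that list, was called and is described last. Cyp26a1, the enzyme that breaks down RA, measured 10.56, 10.82, 9.90 and 11.13 at 6 h and 10.75, 11.47, 10.43 and 11.55 at 12 h, against 5.19 to 5.48 untreated. The groups overlapped, with a change of 0.45 ± 0.35 (limma adjusted p = 0.634). Dhrs3, a retinal reductase, changed by 0.14 ± 0.25, Rara by 0.22 ± 0.13 and Rarb, below the median of each array at 5.86 to 6.14, by -0.01 ± 0.09 (limma adjusted p = 0.516 or above). Of 19 measured retinoic acid targets, 0 were called (0.512% of all genes were) and the median was 0.01. Against untreated, 9 of the 19 were called higher at 12 h and 6 in batch 4 at 6 h (4% and 2.21% of all genes). The repressor Hic1 and the receptor Rarg had the largest negative changes of the list (-0.79 ± 0.29 and -0.59 ± 0.22, limma adjusted p = 0.239 and 0.259). For both, 12 h replicates 1 and 3 were low (Hic1 8.68 and 8.08) and replicates 2 and 4 (9.68 and 9.79) lay near the 6 h arrays (9.70 to 9.98). Cebpa, a factor needed for granulocyte commitment, changed by -0.33 ± 0.13 and Cebpe, the factor of secondary granule genes, by 0.28 ± 0.24 (limma adjusted p = 0.266 and 0.661). Cebpe measured 12.00, 11.74, 11.92 and 12.20 at 12 h, 11.47, 11.47 and 11.55 in RA 6 h replicates 1 to 3 and 12.23 in replicate 4. Fcgr4, an IgG receptor of myeloid cells, did not overlap (9.43 to 9.86 against 7.49 to 9.34) and was not called (1.13 ± 0.56, limma adjusted p = 0.41).

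Of the progenitor and growth genes in the lists below 0 were called, against 102 of all 19938 genes (0.512%). At that share, 0 calls in a short list do not set it apart from all genes. Of 21 stem and progenitor genes 0 were called, with a median of -0.06. Cd34, the surface marker of progenitors, measured 10.09, 11.15, 9.85 and 11.09 at 12 h and 11.81, 11.65, 12.00 and 11.57 at 6 h, without overlap (-1.21 ± 0.31, limma adjusted p = 0.067, and 0.0326 without RA 6 h replicate 4). Zbtb16, the PLZF repressor, behaved alike, at 8.75 to 9.57 against 10.00 to 10.27 (-0.97 ± 0.26, limma adjusted p = 0.0912). Kit, a growth factor receptor of progenitors, changed by -0.48 ± 0.32 (limma adjusted p = 0.559), Gata2 by -0.50 ± 0.25 (limma adjusted p = 0.413) and Flt3 by -0.58 ± 0.36 (limma adjusted p = 0.533). In the list of Myc and ribosome biogenesis genes, 22 of 24 had negative changes, with a median of -0.30 and 0 calls. That list split the arrays in another way than time: its mean level was 9.88 and 9.86 in 12 h replicates 1 and 3, 9.93, 9.98 and 9.94 in RA 6 h replicates 1 to 3, but 9.17 and 9.24 in 12 h replicates 2 and 4 and 9.31 in RA 6 h replicate 4. Odc1, the polyamine enzyme and a Myc target, changed by -0.68 ± 0.33, Fbl, the nucleolar fibrillarin, by -0.33 ± 0.16 and Myc itself by 0.41 ± 0.32 (limma adjusted p = 0.401 or above). Of 26 mitosis genes 25 had changes below 0, with a median of -0.16 and 0 calls. Ccna2, cyclin A, lay at 11.10 to 11.18 at 12 h, 11.42 to 11.54 in RA 6 h replicates 1 to 3 and 11.16 in replicate 4 (-0.25 ± 0.07, limma adjusted p = 0.105, and 0.00585 without it), and Cenpf changed by -0.38 ± 0.11 (limma adjusted p = 0.111). Bex6 split the 12 h arrays, at 8.29 and 8.07 in replicates 1 and 3 and 5.76 and 6.59 in replicates 2 and 4, against 6.37 to 8.06 at 6 h (0.04 ± 0.39, limma adjusted p = 0.976). Over the 21 alternatives the change of Bex6 ran from -0.96 to 1.35. The value of 1.35 came without 12 h replicates 2 and 4 and RA 6 h replicate 4. That set of arrays was chosen after the data were seen and leaves out the low 12 h arrays. It therefore cannot decide whether Bex6 changed with time. Jag1, a Notch ligand, changed by -0.10 ± 0.12.

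Markers of other cells were not called between the times. Of 12 measured B cell markers, 10 had positive changes, with a median of 0.42, and the mean level of the list was 6.52 to 7.56 at 12 h and 6.25 to 6.98 at 6 h. The high arrays were 12 h replicate 4 and RA 6 h replicate 4, and untreated 12 h replicate 2 was higher still (8.27). Cd79a measured 9.09 and Ms4a1 8.55 in 12 h replicate 4, against 7.49 to 7.92 and 6.58 to 7.55 in the other 12 h arrays. Erythroid markers (9 measured) lay at 6.40 to 7.29 at 12 h and 6.40 to 6.66 at 6 h, with 12 h replicate 4 the high array. Median changes were 0.08 for T and NK cell, -0.02 for monocyte and macrophage, -0.03 for dendritic cell, 0.01 for eosinophil, basophil and mast cell, -0.13 for megakaryocyte and -0.22 for stromal and endothelial markers. None of these 8 lists had a member called with all 8 arrays, where 0.512% of all genes were called. Without RA 6 h replicate 4 the eosinophil, basophil and mast cell list had 2 called higher (2.81% of all genes were). In the arrays with high B cell markers Ngp had its lowest 12 h value (12.27, replicate 4) and its highest 6 h value (10.98, replicate 4). The part of other cell types in the results was not tested.

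The same times were compared without RA. In untreated Pml null leukaemia (2 arrays per time) limma called 0 genes (0%), with 219 at an unadjusted p below 0.05, and 3 and 9 genes without untreated 12 h replicate 1 and untreated 6 h replicate 2. The B cell markers had a median untreated difference of 0.66, with untreated 12 h replicate 2 the high array. The median untreated difference of the 86 rises was -0.14 and of the 16 falls 0.02. The difference between the RA and the untreated time course was tested directly and called for 3 genes (0.015%): Ngp (1.87 ± 0.33, limma adjusted p = 0.0346), Ptpn18 (0.98 ± 0.17, limma adjusted p = 0.0256) and Khk (0.84 ± 0.13, limma adjusted p = 0.0153). Ngp was 10.14 and 10.68 untreated at 6 h, and 10.47 and 10.62 at 12 h. For Khk and Ptpn18 the difference was larger than the rise with RA given above. Part of it thus came from lower untreated values at 12 h than at 6 h. Over the alternatives it ran from 0.78 to 0.91 for Khk and from 0.77 to 1.20 for Ptpn18. Without RA 6 h replicate 4, 7 genes were called (0.0351%): Hgd (2.24), Pglyrp1 (1.20), Ccna2 (-0.58) and Clec11a (-1.55) joined those 3. Without RA 6 h replicate 2, untreated 6 h replicate 1 or either untreated 12 h array 0 genes were called, and without untreated 6 h replicate 2 there were 33. Ngp kept its call in 9 of 19 alternatives, with a difference of 1.59 to 2.14 over all of them. The other 99 genes called between the RA times did not pass this test, which rests on 2 untreated arrays per time. RA against untreated called 526 genes at 6 h (2.64%) and 1155 at 12 h (5.79%) in batch 3, and these comparisons share the RA arrays with the time comparison.

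In the Pml wild type leukaemias of batch 3 the same comparison called 1 gene (0.00502%), Rad51b, a DNA repair protein, which fell by 0.54 (-0.54), with 1176 genes at an unadjusted p below 0.05. The arrays of that background paired across the times, as given above, and the count and the difference between backgrounds rest on their labelled times. The 86 genes that rose in the Pml null leukaemia had a median change of 0.15 there, with 74 above 0, and the 16 that fell had a median of -0.10, with 12 below 0. The difference between the backgrounds was tested directly and called for 1 gene (0.00502%), Ngp, at 1.91 ± 0.27 (limma adjusted p = 0.00242). Without RA, Ngp was already at 12.73 to 13 in the untreated wild type arrays of batch 3. In the wild type arrays with RA it was 12.96 to 13.12 at 6 h and 12.94 to 13.37 at 12 h (0.09 ± 0.19), above each Pml null array at either time. Neutrophil genes shared that order: the mean of the list was 11.08 to 11.48 at 6 h and 11.01 to 12.04 at 12 h in the wild type arrays, against 9.35 to 9.89 and 10.12 to 10.69 in the Pml null arrays. Untreated, it was 10.96 to 11.26 in the wild type and 9.18 to 9.67 in the Pml null arrays of batch 3. Without RA 6 h replicate 4 of the Pml null group, 10 genes differed between the backgrounds (0.0502%), Ngp (2.06), Hgd (2.22), Cxcr2 (2.03), Pglyrp1 (0.89), Ptpn18 (0.72), Khk (0.55) and Ttyh2 (-2.52) among them. Without any other single array 1 to 5 genes differed, Ngp always among them. Hgd was low in the wild type at both times, at 5.90 to 6.17 in all 8 RA arrays, and Ttyh2 was 8.66 to 10.07 at 6 h and 8.61 to 10.05 at 12 h.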

How the data were processed

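Each of 72 Affymetrix Mouse Gene 1.0 ST arrays gave 1 deposited column of log2 signal. Per the submitters' processing notes, the authors used RMA and affy. Versions, background correction, probe set definition and batch correction: not given in the sources used here. Precision is limited by how many arrays there are.

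Of 35556 probe sets, 23410 are in the platform annotation, 21789 with 1 symbol and 1621 with several (not named here); 21698 symbols were updated through the gene ID with RefSeq (GRCm38.p6). For the 999 genes with several probe sets, the brightest on average over the 72 arrays was taken, which gave 19938 genes with no filter on low signal. Where probe sets of a called gene disagreed, as for Anxa6 (0.57 and -0.07), the brighter one was used. In R 4.3.3, limma 3.58.1 was fitted to the 36 viral transduction arrays with 1 coefficient per combination of background, treatment, time and batch (24 residual degrees of freedom), followed by eBayes. Tests were two-sided, p-values were adjusted over 19938 genes by Benjamini-Hochberg, and a gene below 0.05 was called; changes are log2 differences with their standard error (SE). All 8 arrays lie in batch 3, so batch does not divide the 2 times. No pair of arrays was identical.

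In simulated data for RA 12 h minus RA 6 h in Pml null leukaemia (19938 genes, 20 runs), the fit recovered 24.6% of genes changed 1.25-fold, 77.1% at 1.5-fold and 94.9% at 2-fold. False calls averaged 7.7. The simulated noise was normal and independent for each gene and array. The real arrays formed pairs and 1 stood apart from its group, which the simulation left out, so these rates may not hold for them.

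Named genes are the 15 largest called rises and 15 largest called falls (without clone, predicted, histone, olfactory and small RNA names), up to 4 members of each list by the moderated statistic, up to 5 genes called in each of the 2 differences, and a fixed panel. Of 611 genes in 35 lists, 562 were measured; the others, some panel genes among them, are not analysed here. Members and lists were chosen with earlier results of these data known. Lists are described by counts and medians, with no test of a list. The closing section gives the alternatives: other sets of arrays, quantile normalization, median centring, a mean log2 floor of 6, the mean of probe sets, eBayes with trend and robust, array weights, an additive batch term and leaving out arrays.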

Additional observations from a re-analysis of the deposited data

Results flagged for a closer look

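In groups of 4 arrays, an array was noted where its gap to the nearest other, as a share of the group's range, exceeded Dixon's 95% critical value. This concerned 14 of 250 groups of values (90 genes and 35 lists at 2 times), near the share of 1 in 20 that chance gives, and 7 of the 14 were RA 6 h replicate 4. That array was high for Irf7 (8.39, against 7.76 to 7.83 in the other 3), Ptpn18 (7.24, against 6.95 to 6.99), Cebpe (12.23, against 11.47 to 11.55) and Ms4a1, the B cell antigen CD20 (7.68, against 6.09 to 6.26). It was low for Odc1 (8.64, against 9.84 to 9.97) and for the mean level of DNA replication and S phase genes (9.16, against 9.77 to 9.87) and of Myc and ribosome biogenesis genes (9.31, against 9.93 to 9.98). At 12 h, replicate 3 was high for Xaf1 (8.95, against 8.44 to 8.51) and Lrat (6.81, against 6.36 to 6.42), and replicate 4 was low for Camp (7.39, against 7.99 to 8.07) and high for Jag1 (6.00, against 5.64 to 5.69) and the mean of erythroid markers (7.29, against 6.40 to 6.43). Replicate 2 at 12 h was high for the mean of circadian clock genes (7.80, against 7.61 to 7.64) and low for stroma and endothelium markers (7.66, against 7.91 to 7.93). What sets these arrays apart was not tested.

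The time change differed between RA and untreated Pml null arrays, by the interaction test, for Khk (0.84), Ngp (1.87) and Ptpn18 (0.98), and between Pml null and wild type leukaemias for Ngp (1.91).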

How the results depend on the processing

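No paired analysis was possible because the labels give every array the same replicate number, and the code in each title belongs to 1 array and ties no 12 h array to a 6 h array. Replicate numbers here only name arrays in accession order. No called gene named here changed sign under any of the 21 alternatives, and all 102 called genes kept their sign wherever they were fitted, but the count of calls moved widely. It was 102 (86 up and 16 down) and became 52 (40 up) with the 24 arrays of batch 3 alone, 14 (12 and 2) with the 8 arrays compared, 279 (215 and 64) with the additive batch term and the batch 4 arrays, and 2110 (1461 and 649) with array weights, whose estimation stopped before converging. Leaving out 1 of the 8 arrays gave 29 to 698 calls (25 to 561 up and 4 to 137 down): 698 without RA 6 h replicate 4, and 48, 40 and 29 without 6 h replicates 1, 2 and 3, and 54 and 57 without 12 h replicates 1 and 3. Leaving out 12 h replicates 2 and 4 gave 341 (232 and 109), and leaving them out with RA 6 h replicate 4 gave 922 (674 and 248); with 12 h replicates 1 and 3 and that array left out it was 437 (288 and 149). The leaving out of pairs, and of arrays of the other comparisons, was chosen after seeing the data. So was the giving of results without RA 6 h replicate 4 throughout. Of the 45 called genes named here, 7 remained called with the 8 arrays compared, 15 without RA 6 h replicate 3, and 45 without replicate 4. A lone untreated array left by such a fit is assumed to vary like the other groups.

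The RA against untreated interaction called 3 genes, 1 after quantile normalization, 301 with array weights and 0 to 33 with 1 array left out (33 without untreated 6 h replicate 2, 7 without RA 6 h replicate 4, 1 without RA 12 h replicate 3 or RA 6 h replicate 1 or 3, and 0 without RA 6 h replicate 2, untreated 6 h replicate 1 or either untreated 12 h array). There Ngp ran from 1.59 to 2.14 and stayed called in 9 of 19 alternatives. The difference between backgrounds called 1 gene, 2 after quantile normalization and 1 to 10 with 1 array left out, 2 without Pml null 12 h replicate 1 or wild type 12 h replicate 2, 5 without Pml null 12 h replicate 4 and 10 without RA 6 h replicate 4; Ngp (1.81 to 2.06) stayed called in all 23. The wild type time change called 1 gene, 0 with centred arrays, 2 with array weights and 1 to 3 with 1 array left out (3 without wild type 12 h replicate 1 or 6 h replicate 4), and the untreated time change 0 to 9 (3 without 12 h replicate 1 and 9 without 6 h replicate 2). RA against untreated called 190 to 908 genes at 6 h in batch 3, 366 to 1341 at 12 h and 217 to 864 in batch 4 with 1 array left out, (at 6 h in batch 3, 908 without RA 6 h replicate 4 and 242 and 190 without untreated replicates 1 and 2; 597 and 366, and 249 and 217, without the same 2 untreated arrays at 12 h and in batch 4), and 2478, 2008 and 2174 with array weights. Of the 35 lists, the neutrophil list kept a median of 0.70 to 1.19, the interferon list 0.22 to 0.67 and the Myc list -0.76 to 0.08.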

Other observations

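The 5 genes that follow were outside the rule for named genes and were picked after their values were seen, because they were called higher at 12 h than at 6 h of RA in Pml null leukaemia. They are single values and not a count for a pathway, and of the 22 measured members of the interferon list 1 was called. Dhx58, an RNA helicase of antiviral sensing, measured 8.86 to 9.05 at 12 h and 8.04 to 8.34 at 6 h (0.73 ± 0.16, limma adjusted p = 0.0316). Oas1c measured 7.48 to 7.75 and 6.54 to 7.20 (0.83 ± 0.16, limma adjusted p = 0.0107). Plscr1, an interferon-inducible scramblase, measured 11.02 to 11.39 and 10.44 to 10.69 (0.62 ± 0.13, limma adjusted p = 0.0173), and in batch 4 it was already 0.73 above untreated at 6 h (limma adjusted p = 0.00452). Psmb8, a catalytic subunit of the immunoproteasome, and Psme1, a subunit of the proteasome activator, rose by 0.52 ± 0.12 and 0.30 ± 0.07 (limma adjusted p = 0.0385 and 0.0271). The 12 h arrays lay above the 6 h arrays, RA 6 h replicate 4 included, for each of these 5 genes (3.14% of all genes). Being called on the same arrays favours this: 91 of the 102 called genes did not overlap, so it is no separate support. Lrat, which esterifies retinol, chosen in the same way, measured 6.36, 6.42, 6.81 and 6.39 at 12 h and 5.79 to 5.89 at 6 h (0.64 ± 0.15, limma adjusted p = 0.043), with 1 untreated 6 h array at 6.48 and the other untreated arrays at 5.82 to 6.00.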
